A study of Mus musculus with 2 samples.

Results

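The Wnt-high cells described here are 446 single cells of a prostate tumor from a TripleTg mouse, out of 21564 cells in the 2 libraries of the series and out of 4012 TripleTg cells that passed the same gate. They were selected on measured values, namely a Wnt score of at least 4, where the score is the summed count of unique molecular identifiers (UMIs, each marking 1 captured RNA molecule) of Axin2, Nkd1, Notum, Lef1, Apcdd1 and Lgr5 per 10000 UMIs of the cell. The gate asked for at least 10000 UMIs, at least 1 Epcam UMI, no Ptprc UMI, under 20 UMIs of the basal keratins Krt5, Krt14 and Krt15 together and under 500 of the seminal vesicle genes Svs2, Svs4 and Svs5 per 10000, and under 50 per 10000 of 6 alpha-defensin genes (Defa21, Defa22, Gm15293, Gm14850, Gm10104 and Defa5). They were compared with the 2939 Wnt-intermediate cells of the same gate, with scores from 0.5 to under 4. A further 627 Wnt-low cells had scores under 0.5.

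Single-cell RNA-seq, which here captured the 3′ ends of transcripts on the 10x Genomics platform, was done on dissociated prostate tumors of 2 genotypes with 1 library each. DoubleTg mice were hHGFtg:H11 hMET/+:PB Cre4, and TripleTg mice carried Ctnnb1 L(Ex3)/+ in addition, both on a mixed C57BL/6 and C3H SCID background. The DoubleTg tumor is labeled as adenocarcinoma and the TripleTg tumor as carcinoma. Both genotypes therefore carried the ubiquitous human HGF transgene, the human MET transgene and a Cre under the probasin promoter, which acts in prostate epithelium, and TripleTg differed by the Ctnnb1 allele whose exon 3 the Cre removes, which stabilizes β-catenin. The ages of the sequenced mice are not given in the sources used here, and whether a given cell had recombined was not measured. The 446 Wnt-high cells held 12158037 UMIs with a median of 23217 per cell, and the Wnt-intermediate cells held 94897064 with a median of 26898. Both groups came from 1 library, so no test was run and no difference below has a replicate check. All intervals are 95% intervals and cover counting error only, exact Poisson for summed counts, exact binomial (Clopper-Pearson) for shares and conditional binomial for log2 ratios.

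Canonical Wnt signaling works through β-catenin, which is degraded in resting cells and, once stabilized, enters the nucleus and acts with TCF/LEF factors on target genes. Several of these targets are inhibitors of the pathway and form a negative feedback. Axin2 belongs to the complex that degrades β-catenin, Nkd1 binds Dishevelled, Notum is a secreted enzyme that removes the lipid from Wnt proteins, Apcdd1 is a membrane inhibitor, Lef1 is a nuclear partner of β-catenin, and Lgr5 is a receptor for R-spondins. In the prostate the pathway takes part in bud outgrowth, and luminal cells are the secretory cells that line the ducts and express Krt8 and Krt18.

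RefSeq promoter windows, from 250 bases before to 50 bases after a transcription start on GRCm38.p6, were searched for the core of the TCF/LEF motif, CTTTGA, on both strands (TCAAAG on the other). It occurred in 5257 of 32851 windows (16%). Of the 6 genes of the score, 3 had windows in the table, with 6 windows in all, and 1 window, of Lef1, held the motif. The Axin2 window is shown because Axin2 carried the most UMIs of the score, and those of Sp5 and Ifitm1, which were higher in Wnt-high cells (below), were picked as examples that hold the motif. Of the 27 genes at least 2-fold higher in Wnt-high cells (below), 20 had windows, and 4 of their 26 windows held it, as did 3 of 15 windows of 13 Wnt inhibitors outside the score, both near the share of all windows. The motif is in capitals. A match, or none, describes these letters in this window only.
Axin2, chr11:108920099-108920398, plus strand: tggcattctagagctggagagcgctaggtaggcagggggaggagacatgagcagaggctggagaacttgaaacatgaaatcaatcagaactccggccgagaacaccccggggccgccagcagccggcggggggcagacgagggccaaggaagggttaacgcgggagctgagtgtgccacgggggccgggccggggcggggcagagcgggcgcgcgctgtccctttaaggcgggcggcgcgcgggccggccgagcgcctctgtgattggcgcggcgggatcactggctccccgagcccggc
Sp5, chr2:70474673-70474972, plus strand: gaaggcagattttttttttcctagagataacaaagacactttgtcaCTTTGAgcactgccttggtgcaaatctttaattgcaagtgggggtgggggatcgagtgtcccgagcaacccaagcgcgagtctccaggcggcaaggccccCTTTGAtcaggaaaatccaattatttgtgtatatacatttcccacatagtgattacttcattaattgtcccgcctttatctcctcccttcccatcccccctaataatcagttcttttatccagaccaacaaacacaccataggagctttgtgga
Ifitm1, chr7:140967826-140968125, plus strand: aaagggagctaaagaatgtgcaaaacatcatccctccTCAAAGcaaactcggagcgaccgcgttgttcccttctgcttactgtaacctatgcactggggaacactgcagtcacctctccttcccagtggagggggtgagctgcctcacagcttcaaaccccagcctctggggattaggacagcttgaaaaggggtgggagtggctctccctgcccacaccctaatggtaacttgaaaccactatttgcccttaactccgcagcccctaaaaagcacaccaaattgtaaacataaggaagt

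The scores of the 446 cells ran from 4.01 to 23.6 with a median of 5.33, from 5 to 53 UMIs of the 6 genes per cell and a median of 13. Scores of 4 to 8 were found in 385 cells, 8 to 16 in 55 cells and 16 or more in 6 cells. The score rested on several genes in most cells, since 401 of 446 (89.9%) had UMIs of 3 or more of the 6 genes and 37 had all 6, while in 208 cells a single gene gave most of the UMIs. The 111 cells just inside the threshold, at 4 to 4.5, had a median of 11 UMIs of the 6 genes, and the 154 cells just outside, at 3.5 to 4, a median of 10. The threshold therefore cuts a continuous range. Of the 4012 gated TripleTg cells, 11.1% (10.2 to 12.1) were Wnt-high. Through the same gate the DoubleTg library gave 4783 cells, of which 12 (0.251%, 0.130 to 0.438) scored at least 4 and 4613 (96.4%) scored under 0.5.

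**Figure D1:**
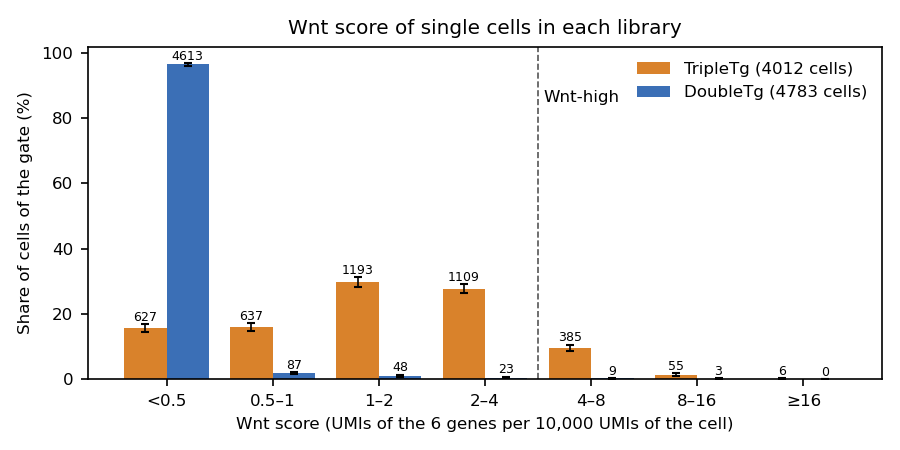
Share of gated cells (y axis, %) in each step of the Wnt score (x axis, UMIs of the 6 genes per 10000 UMIs) in the TripleTg (4012 cells) and DoubleTg (4783 cells) libraries, with exact binomial 95% intervals. In TripleTg 446 cells score at least 4, and in DoubleTg 12 cells do.

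Axin2 (ENSMUSG00000000142, chr11:108920349-108950783) had 210.1 CPM (counts per 1000000 UMIs of the group, interval 202 to 218) in Wnt-high cells, 67.1 in Wnt-intermediate, 6.95 in Wnt-low and 1.75 in gated DoubleTg cells. Nkd1 (chr8:88521354-88594884) had 191, 59.0, 5.50 and 1.61 CPM in the same order, and Notum (chr11:120653788-120661175) had 103, 31.1, 3.10 and 0.896 CPM. Lef1 was at 25.2 CPM in Wnt-high and 5.62 in Wnt-intermediate cells, Apcdd1 at 28.2 and 6.28, and Lgr5 at 31.9 and 14.9. These 6 genes made the selection, so their log2 ratios, from 1.10 for Lgr5 to 2.17 for Apcdd1, are a description. For a measure in UMIs that the choice did not use, the UMIs of every cell were split at random into 2 equal parts and cells were chosen on the first. The chosen cells had a median score of 5.31 in that part and 3.91 in the other, where the Wnt-intermediate cells had 1.58. Of the 527 cells chosen in this way, 254 (48.2%) again scored at least 4. In the unused part Axin2 had a log2 ratio of 1.21 (1.11 to 1.31) in place of 1.65, and Lgr5 0.68 in place of 1.10. After thinning every cell to 10000 UMIs, Axin2 was seen in 79.8% of Wnt-high cells, 45.7% of Wnt-intermediate cells and 4.21% of 95 TripleTg immune cells (Ptprc at least 1, Epcam 0), which give the background and had a median depth of 14805 UMIs.

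The luminal name was checked against markers that the gate did not use. Krt8 was at 3858 CPM in Wnt-high cells (3824 to 3893) and 5431 CPM in Wnt-intermediate cells, Krt18 at 3909 and 5038, and Krt19 at 2718 and 3704. At 10000 UMIs per cell the median Wnt-high cell had 36 Krt8 UMIs, with a lowest of 0 and a highest of 124, and the median Wnt-intermediate cell had 52. All 12 luminal markers were lower in Wnt-high cells, with a median log2 ratio of -0.29, against -0.01 for all 2558 genes compared, and none was 2-fold apart. By its Krt8 level the luminal name held for the group, but not for 39 of its cells (cluster 7, next), whose Krt8 level was 285 CPM. For the 22 cells of cluster 8 the Krt8 level does not settle the name. Of the 61 cells of clusters 7 and 8, 60 shared a cluster led by keratin and envelope genes that are not luminal (next).

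Within the 446 cells, clustering on genes other than those of the rule gave 8 clusters, which are given by number with the genes that lead them, as a description of the cells clustered. Cluster 1 (86 cells) was led by Saa3, Ifit3, Col6a1 and Defb50, a beta-defensin, and also had Col1a1, a collagen of fibroblasts, at 72.1 CPM against 3.20 in the other Wnt-high cells. Cluster 2 (81 cells) was led by Ada, Lypd2, Fam25c and Fabp4, and had the highest Bmp2 level at 333 CPM. Cluster 3 (68 cells) had weak leading genes, of which Krt4 had the highest log2 ratio at 1.30. Cluster 4 (54 cells) had the highest level of Clu, the secreted chaperone clusterin, 7902 CPM against 1282 in the other Wnt-high cells, and 1203 CPM of Ltf, the iron-binding protein lactoferrin of secretions. Cluster 5 (53 cells) held most of the dividing cells, with 215 CPM of Top2a against 1.84 and 42 cycling cells, meaning UMIs of at least 3 of 15 mitosis genes at 10000 UMIs. Cluster 6 (43 cells) was led by Psca, Ivl, Rptn and Il33, with 295 CPM of Ivl, the cornified envelope precursor involucrin, against 23.0. Some leading genes rested on few cells, since 1 cell held 86.2% of the Wnt-high UMIs of Saa3, 55.0% of those of Psca and 46.1% of those of Defb50, and Saa3 was seen in 5 of the 86 cells of cluster 1. The Wnt score had medians of 4.91 to 5.39 in these 6 clusters.

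Clusters 7 and 8 stood apart, with median scores of 8.21 and 7.78, and held 61 cells (13.7%). Cluster 7 (39 cells) was led by Sct, Jakmip2, Pinlyp, Gprc5d and Mt4, a metallothionein of stratified epithelium that had 1069 CPM there and 5.54 CPM in the other Wnt-high cells. Its median cell had 1 Krt8 UMI per 10000 and its Krt18 level was 404 CPM, against 4212 in the others, while Epcam was at 921 CPM. Of the Wnt-high UMIs of Gprc5d, 61.8% were in 1 cell. It also had basal genes within the limit of the gate, with the basal keratins Krt5 at 494 CPM against 17.3 and Krt14 at 397 against 56.4, Trp63, the basal transcription factor, at 39.4 against 1.79, and Cdh3 (P-cadherin) at 49.8 against 0.268. Krt15, the third basal keratin of the gate, was lower there, at 12.4 against 25.9 CPM. Cluster 8 (22 cells) was led by Gzma, Pkd2l1, Fetub and Serpina1e, and held 84.6% of the UMIs of Otop1, a proton channel, and 72.4% of those of the transcription factor Sox2. Its Krt8 level, 3540.1 CPM, lay within the range of clusters 1 to 6, 2869 to 5965 CPM. The human MET transcript, hMETtg, was highest there, at 189 CPM against 23.6 in the other Wnt-high cells, with 16685 UMIs in the median cell and 8 of the 22 cells in the top 10% of doublet scores. Ptn, a secreted growth factor, had its highest levels in clusters 7 and 8 (2451 and 2127 CPM), as did Wif1 (1905 and 889.9 CPM). Among all 4012 gated cells clustered together, 60 of the 61 cells fell into 1 cluster of 80 cells, of which 75% (64.1 to 84.0) were Wnt-high. That cluster was led by Sprr2i, Krt27, Krtap13-1, Krt1 and Krt84, which are keratin and envelope genes of hair and epidermis and not of luminal cells. The next shares were 24.8% (165 of 666 cells) in a cluster led by Golga7b and Lypd2, and 15.4% (47 of 306) in a cluster led by the mitosis genes Racgap1 and Hmmr.

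**Figure D2:**
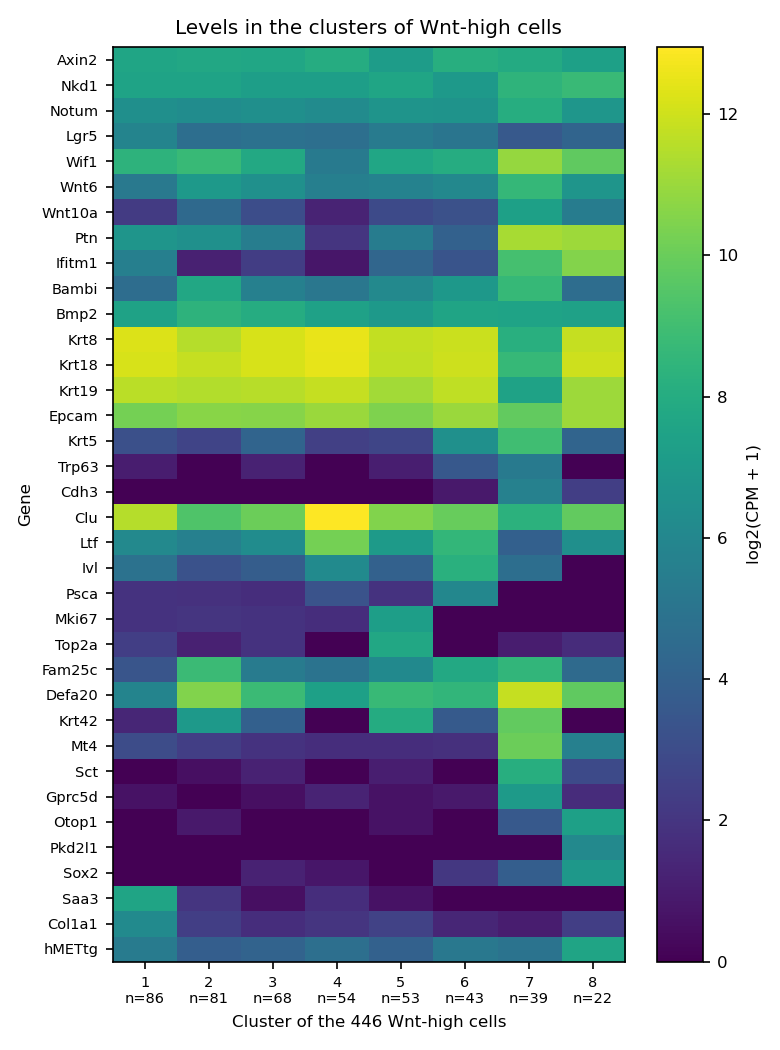
Levels of genes (y axis) in the 8 clusters of the 446 Wnt-high cells (x axis), as log2(CPM + 1) in color. Krt8 is lowest in cluster 7, at 285 CPM, and Ptn and Wif1 are highest in clusters 7 and 8.

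Wnt-high cells differed from Wnt-intermediate cells by at least 2-fold in few genes. Of the 2558 genes that reached 50 CPM in at least 1 of the groups, without those of the rule and gate, 27 were at least 2-fold higher in Wnt-high cells (1.06%) and 26 at least 2-fold lower (1.02%). The higher genes held the secreted Wnt inhibitor Wif1, the ligands Wnt6 and Wnt5a and the BMP genes Bmp2 and Bambi, and the lower genes held Clu and Tgm4. Of these, 18 of the higher genes reached 50 CPM only in Wnt-high cells and 16 of the lower ones only in Wnt-intermediate cells. Such genes were admitted by their own difference, so counts over a filter are given below as a description and support nothing. Without clusters 7 and 8, 17 of the 27 and 16 of the 26 were still at least 2-fold apart. These clusters were drawn in Wnt-high cells only, so no Wnt-intermediate cells were left out with them. The cluster of the whole gate that held 60 of the 61 cells also had 16 Wnt-intermediate cells, which stayed in the comparison. Most of these differences were under 2-fold within clusters of the whole gate. Averaged within its 6 clusters with at least 20 cells of both groups (361 of the 446 cells), 3 of the 27 higher and 5 of the 26 lower genes were 2-fold apart. The cluster with 60 of the 61 cells had too few Wnt-intermediate cells to be used, so values within clusters also lack those cells. Ptn (ENSMUSG00000029838, chr6:36714929-36810220) was at 325 CPM (315 to 336) against 14.9, a log2 ratio of 4.45 (4.36 to 4.53). Clusters 7 and 8 held 84.8% of its UMIs, and the ratio was 1.91 without them and 1.64 within clusters of the gate. Ifitm1 (ENSMUSG00000025491), an interferon-induced membrane protein, was at 113 against 7.99 CPM, with 89.5% of its UMIs in those clusters and a ratio of 0.75 without them. Mt4 and the chemokine Cxcl14, singled out after their values were seen, had ratios of 1.48 and 1.40 over all cells and -3.14 and -0.14 without the 61 cells.

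**Figure D3:**
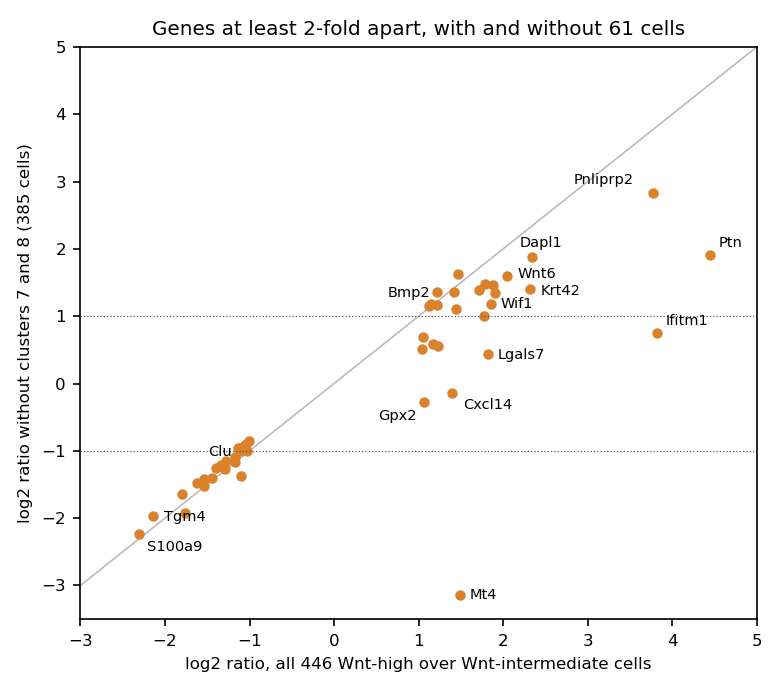
Log2 ratio of Wnt-high over Wnt-intermediate cells for the genes at least 2-fold apart, with all 446 Wnt-high cells (x axis) and with the 385 cells outside clusters 7 and 8 (y axis), the diagonal marking equal values. Both axes use the same Wnt-intermediate cells. Ptn moves from 4.45 to 1.91 and Ifitm1 from 3.82 to 0.75, while Clu goes from -1.39 to -1.26.

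The 15 highest ratios at 10000 UMIs per cell were those of Saa3, Ptn, Pnliprp2, Ifitm1, Dapl1, Gm21002, Defa20, Wif1, Wnt6, Krt42, Lgals7, Gm15308, Hes6, Mt3 and Bambi. Saa3, an acute phase protein carried mostly by 1 cell (above), was seen in 2.02% of Wnt-high and 0.953% of Wnt-intermediate cells. Pnliprp2, a lipase, also had 43.4% of its UMIs in 1 cell. Dapl1, by contrast, was seen in 19.5% of Wnt-high and 4.22% of Wnt-intermediate cells, and its ratio of 2.34 was 1.88 without clusters 7 and 8 and 1.91 within clusters of the gate. Hes6, a bHLH protein of the Hes family, was at 71.1 against 21.7 CPM and seen in 37.0% against 15.9% of cells, with a ratio of 1.71 overall and 0.55 within clusters. Krt42, a keratin, was at 139 against 27.7 CPM and seen in 9.87% of Wnt-high cells. Cluster 7 held 53.2% of its UMIs, and its ratio of 2.32 was 1.41 without clusters 7 and 8 and 0.09 within clusters of the gate. Lgals7 (galectin-7), an epithelial lectin, was at 523 against 148 CPM, a ratio of 1.82 that was 0.43 without clusters 7 and 8 and -0.21 within clusters. The other higher genes, listed after their values were seen, were Lypd2, Aspscr1, Phlda3, S100a3, Chpt1, Pglyrp1, Sema5a, Gpx2 and Mgp, with ratios up to 1.47. Without clusters 7 and 8 Gpx2 turned from 1.06 to -0.27, and Phlda3 (0.56), Pglyrp1 (0.59) and Mgp (0.52) were no longer 2-fold higher.

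Several secreted and membrane inhibitors of the Wnt pathway outside the rule were higher in Wnt-high cells. Of 21 listed genes, 16 had at least 3 UMIs in both groups, 11 of them with a ratio above 0 (of all 14352 genes with 3 UMIs in both groups 56.3% were above 0), and their median log2 ratio was 0.73. At 10 CPM in either group, 3 of 10 were at least 2-fold higher and 1 lower, against 1.60% and 1.16% of all 6995 genes at that level. Of these Nkd2, Dkk3 and the lower Sfrp1 reached 10 CPM in 1 group only. Wif1 (ENSMUSG00000020218, chr10:121033960-121100650), which binds Wnt proteins outside the cell, was at 418 CPM (407 to 429.7) in Wnt-high, 116 in Wnt-intermediate, 46.5 in Wnt-low and 11.7 in gated DoubleTg cells. Its log2 ratio was 1.85 (1.80 to 1.90), or 1.19 without clusters 7 and 8, which held 44.3% of its UMIs, and 0.73 within clusters of the gate. At 10000 UMIs it was seen in 67.5% of Wnt-high cells, 43.3% of Wnt-intermediate cells and 9.47% of immune cells. Nkd2, the paralog of Nkd1, was at 12.7 CPM (10.8 to 14.9) against 2.60, a ratio of 2.29 that was 2.41 without clusters 7 and 8 and 1.83 within clusters of the gate. Rnf43 and Znrf3, ligases that remove Frizzled receptors from the surface, were at 46.3 against 25.6 CPM and 43.9 against 25.1 CPM, with ratios of 0.86 (0.72 to 0.99) and 0.81 (0.67 to 0.94). Both kept them within clusters of the gate, at 0.87 and 0.70. Dkk2, a secreted antagonist of LRP co-receptors, was at 140.4 against 107 CPM, a ratio of 0.39, and at 51.3 CPM in Wnt-low cells. Dkk3 (1.31) and Kremen1 (0.87), a receptor of Dkk proteins, were higher as well. Sfrp1, a secreted Frizzled-related protein, was lower, at 4.69 against 12.8 CPM, and at 75.4 CPM in Wnt-low cells.

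Several Wnt ligands were higher too. Wnt6 and Wnt10a, whose genes lie near each other (chr1:74771892-74785322 and chr1:74791516-74804179), were at 101 against 24.5 CPM and 22.3 against 2.09 CPM. Their log2 ratios were 2.05 (1.95 to 2.15) and 3.42 (3.15 to 3.69), 1.60 and 2.07 without clusters 7 and 8, and 1.08 and 2.07 within clusters of the gate. Wnt6 was seen in 38.6% of Wnt-high, 15.7% of Wnt-intermediate and 1.05% of immune cells at 10000 UMIs. Wnt5a, a ligand mostly of noncanonical signaling, was at 64.9 against 31.2 CPM, a ratio of 1.06 that was 0.70 without clusters 7 and 8 and 0.43 within clusters of the gate, so it was no longer 2-fold higher in either. Wnt11 was at 12.5 against 5.34 CPM. Wnt4 (0.06, -0.02 to 0.14) and Wnt7b (-0.14, -0.24 to -0.04) were within 2-fold, as was Wls, the carrier that Wnt ligands need for secretion (0.09). At 10 CPM, 4 of 7 genes of this list were at least 2-fold higher and 0 lower, against 1.60% and 1.16% of all 6995 genes, but Wnt10a and Wnt11 reached 10 CPM in Wnt-high cells only.

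Receptors and nuclear partners differed less than inhibitors and ligands in their medians. Of 17 receptor genes, 16 had UMIs enough for a ratio, with a median of 0.15. The 6 receptors at 10 CPM or more were within 2-fold, among them Lrp6 (0.03, -0.12 to 0.18) and Lgr4 (-0.08, -0.25 to 0.09). Ptk7, a co-receptor at 5.02 against 0.906 CPM, had 78.7% of its Wnt-high UMIs in clusters 7 and 8. Among 12 nuclear partners the median was 0.15 and the 8 at 10 CPM or more were within 2-fold. At that level 1.60% of all 6995 genes were 2-fold higher and 1.16% lower, so both lists were near the share of all genes. Bcl9, which links β-catenin to Pygopus proteins, had the highest ratio of the 8 nuclear partners, at 66.7 against 40.9 CPM (0.71, 0.59 to 0.81), while Tcf7 was at 41.1 against 32.0 CPM (0.36) and Tcf7l2 at 101 against 108 CPM (-0.09). Ctnnb1 itself was at 282 against 235 CPM (0.26, 0.21 to 0.32), and at 251 CPM without clusters 7 and 8. In the list of Ctnnb1 with the degradation complex and the catenin and cadherin partners, none of 8 genes at 50 CPM or more was 2-fold apart, and Apc was at 0.01. Of all genes at that level 1.06% were 2-fold higher and 1.02% lower.

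Other genes widely described as β-catenin targets went both ways. Of 28 listed genes, 24 had a ratio, 15 of them above 0 and 9 below, and their median was 0.57, or 0.04 without clusters 7 and 8. At 10 CPM 1 of 14 was 2-fold higher, against 1.60% of all genes, namely the homeobox gene Prox1 at 12.8 against 2.10 CPM, which reached 10 CPM in Wnt-high cells only. Several well-expressed members were level or lower. Myc was at 55.2 against 63.8 CPM (-0.21, -0.33 to -0.09), the D cyclin Ccnd1 at 56.9 against 58.7 CPM (-0.04, -0.16 to 0.07) and the hyaluronan receptor Cd44 at 422 against 449.5 CPM (-0.09). Sox9 was at 322 against 435 CPM (-0.43), Plaur, the urokinase receptor, at 178 against 252 CPM (-0.50) and the protease Mmp7 at 2174 against 3038 CPM (-0.48, -0.50 to -0.46). Tcf4, a bHLH factor, was higher but within 2-fold, at 165 against 100 CPM (0.72, 0.65 to 0.79), and at 73.6 CPM in Wnt-low cells. Sp5, a zinc finger factor and a known Wnt target, was at 6.25 against 2.0 CPM (1.64, 1.24 to 2.03), and Lgr6, a relative of Lgr5, at 6.25 against 0.400 CPM with 80.3% of its UMIs in clusters 7 and 8.

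**Figure D4:**
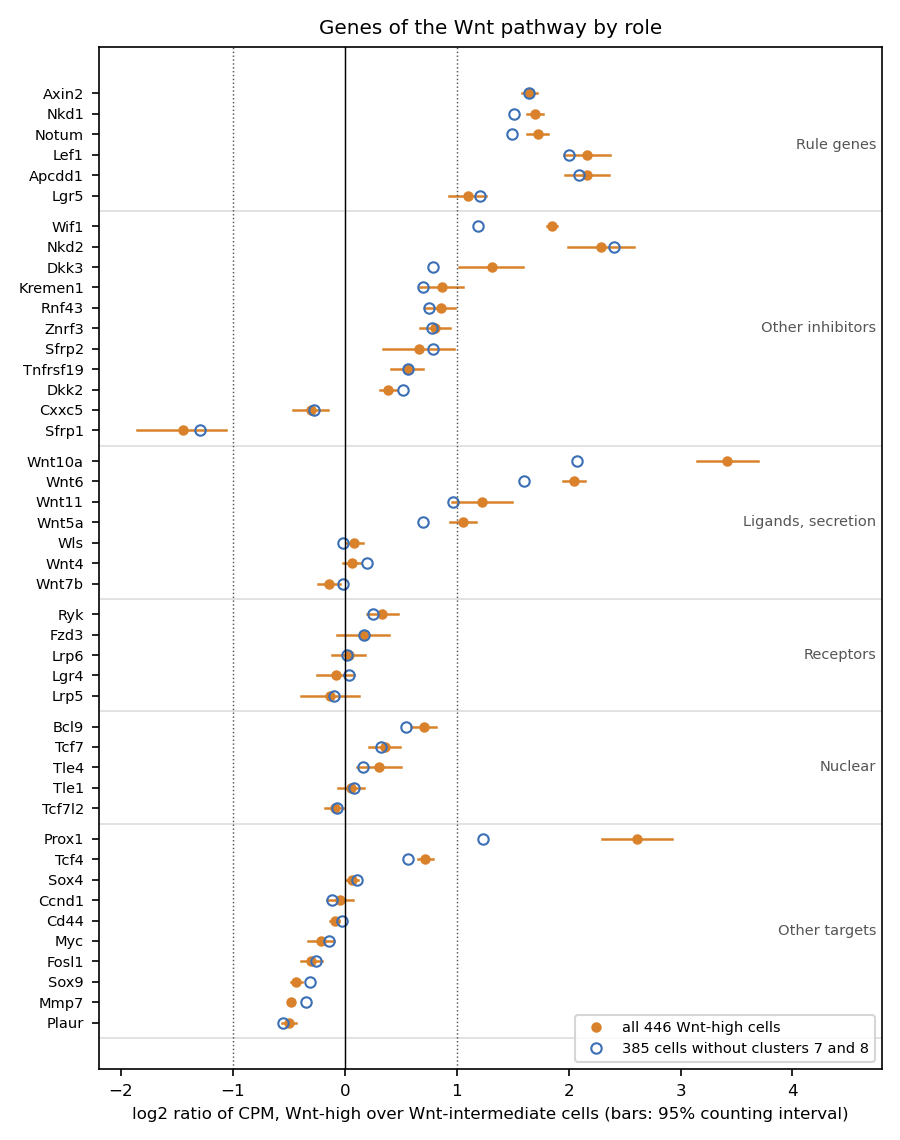
Log2 ratio of CPM in Wnt-high over Wnt-intermediate cells (x axis) for Wnt pathway genes grouped by role (y axis), with 95% counting intervals for all 446 cells and, as separate points, the values of the 385 cells outside clusters 7 and 8. The rule genes lie between 1.10 and 2.17 by selection, Wif1, Nkd2, Wnt10a and Wnt6 lie above a 2-fold difference, and Mmp7 and Plaur lie below 0.

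BMP and TGF-β signaling, related pathways of secreted ligands, were represented together by 1 list of 26 genes. Of these, 23 had a ratio, with a median of 0.30 (0.05 without clusters 7 and 8), and 2 of 10 at 50 CPM were at least 2-fold higher, against 1.06% of all genes, of which Bambi reached 50 CPM in Wnt-high cells only. Bmp2 (ENSMUSG00000027358, chr2:133552159-133562885) was at 213 CPM (205 to 221) against 97.5, a log2 ratio of 1.13 (1.06 to 1.19), 1.16 without clusters 7 and 8 and 0.84 within clusters of the gate. It was seen in 67.9% against 46.2% of cells at 10000 UMIs. Bambi, a decoy receptor, was at 113 against 41.5 CPM (1.45, and 0.45 within clusters). The BMP target genes Id1 and Id3 had ratios of 0.46 and 0.58, and the ligand Tgfb2 was at 68.9 against 96.6 CPM (-0.49). The Notch list held 4 genes at 10 CPM, of which Hes6 was 2-fold higher, against 1.60% of all genes. Its median was -0.18, with 7 of 11 below 0, or -0.43 without clusters 7 and 8. At the same level the FGF and hedgehog list held 1 gene.

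Along the steps of the score, at 10000 UMIs per cell, Wif1 was higher at each step. It was at 47.8 CPM under 0.5, 88.7, 99.0 and 143 CPM in the 3 intermediate steps, 330.4 CPM at 4 to 8 and 1194 at 8 to 16. Without clusters 7 and 8, which left 355 and 29 cells in the last pair of steps, Wif1 was at 219.7 and 910.3 CPM. Wnt6 was at 10.5 CPM under 0.5, 37.6 at 2 to 4, 73.8 at 4 to 8 and 244 at 8 to 16, but at 86.2 in the last of these without clusters 7 and 8. Bmp2 was at 61.7, 111, 192 and 278 CPM in the same steps, and Rnf43 at 16.3, 29.6, 44.2 and 70.9. Without clusters 7 and 8 Rnf43 was at 42.5 and 41.4 CPM in the last pair of steps, so it was not higher in the last, and Bmp2 at 193 and 334. Clu ran the other way, at 7118, 6384, 5719.9 and 4400.3 CPM in the steps below 4, 2205 at 4 to 8 and 896 at 8 to 16. Krt8 lay between 5051 and 5563 CPM below a score of 4 and was at 4144 and 1909 in the next steps, or 4339 and 2469 without clusters 7 and 8. The step at 16 or more holds 6 cells, so its values are in the plot only.

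**Figure D5:**
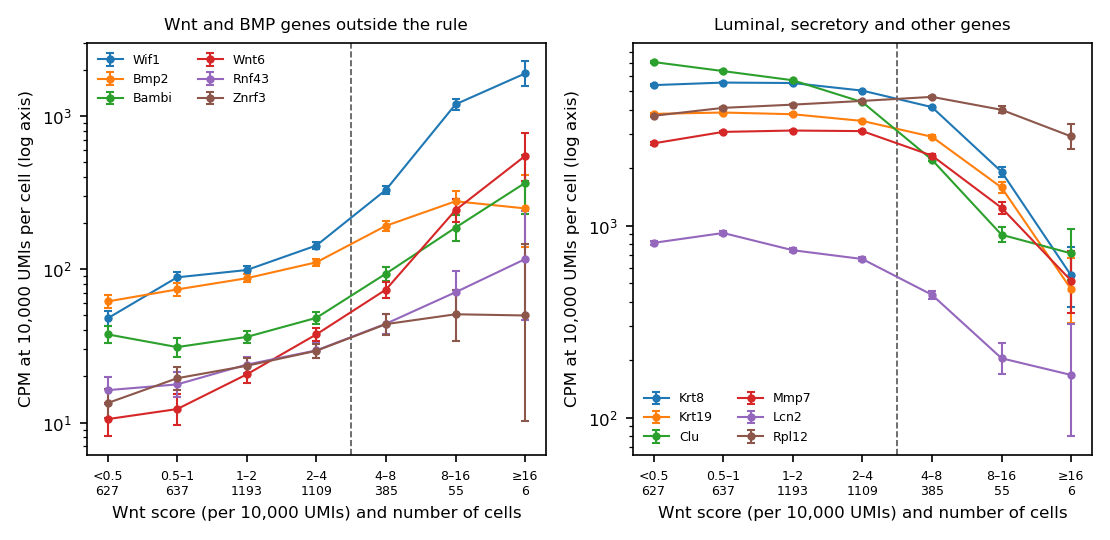
Level at 10000 UMIs per cell (y axis, CPM on a log axis, 95% Poisson intervals) in the steps of the Wnt score (x axis, with the number of cells). Wif1 goes from 47.8 CPM in the first step to 1194 at 8 to 16, while Clu goes from 7118 to 896 CPM and the ribosomal protein gene Rpl12 stays between 3734 and 4686 CPM over the same steps.

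Among the genes lower in Wnt-high cells were the secreted chaperone Clu and the prostate transglutaminase Tgm4. At 10000 UMIs the lowest ratios included those of Tgm4, Serpinb1a, Hbb-bt, Sparc, Upk1b, Fabp4, Clu, Igfbp7, Pate4, Il33, Sprr1a, Pnliprp1, Timp1 and Ivl. Clu (ENSMUSG00000022037, chr14:65968483-65981547) was at 2018 CPM (1992 to 2043) against 5301 and 7436 in Wnt-low cells, a log2 ratio of -1.39 (-1.41 to -1.38), -1.26 without clusters 7 and 8 and -0.99 within clusters of the gate. The median cell had 8 Clu UMIs per 10000 in the Wnt-high group and 29 in the Wnt-intermediate group. Clu was thus lower in the typical cell and not only in the sum. Tgm4, a transglutaminase of prostate secretion, was at 39.6 against 174 CPM (-2.14, -2.27 to -2.01) and seen in 13.9% against 26.8% of cells, with a ratio of -0.79 within clusters. Upk1b, a uroplakin, was at 26.1 against 80.0 CPM, and Serpinb1a, a protease inhibitor, at 22.6 against 78.4 CPM, with ratios within clusters of -1.21 and -1.34. With groups chosen on one random part of the UMIs and measured on the other, Clu was at -0.88, under 2-fold, Serpinb1a at -1.12 in place of -1.79, Upk1b at -1.37 and Tgm4 at -1.94, while Wif1 was at 1.76, Wnt6 at 1.93 and Ptn at 3.95, and Bmp2 (0.95) and Wnt5a (0.85) were also under 2-fold. Of all genes with 3 UMIs in both groups 43.7% were below 0. Of 9 proximal-type luminal markers 7 were below 0, with a median of -0.46, among them Ly6a at 575 against 977 CPM (-0.77) and Wfdc2 at 92.5 against 176 CPM (-0.93). The other 2 were above 0, with Krt4 highest at 0.80. Mucosal defense genes had a median of -0.68, with 10 of 12 below 0, and the antimicrobial proteins Lcn2, Slpi and Ltf were at 419 against 743 CPM, 179 against 323 CPM and 228 against 457 CPM. The other 2 were above 0, with Lyz1 highest at 0.755. MHC and interferon genes had a median of -0.33, with 16 of 20 below 0. At 10 CPM 2 of 9 proximal, 2 of 6 mucosal and 1 of 16 MHC and interferon genes were 2-fold lower and none higher, against 1.16% of all genes. Other lower genes, listed after their values were seen, included Rnase1, Cp, Cyr61, Coch, C1rb, Tm4sf1, C1s2, Sftpc, Ggct and Lpl.

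Most markers of other cell types were also lower in Wnt-high cells, and their part in the differences above was not tested. Endothelial markers summed to 20.2 CPM in Wnt-high, 53.6 in Wnt-intermediate and 142 in Wnt-low cells, smooth muscle markers to 20.3, 41.3 and 220.3 CPM, and immune markers to 119, 194 and 449 CPM. Fibroblast markers summed to 312, 280.2 and 1214 CPM, with Dcn alone at 259, 168 and 349, and 7 of 10 were below 0 in the ratio of the first 2 groups. Cells with over 5 UMIs per 10000 of 15 non-epithelial markers were 1.35% of Wnt-high, 3.03% of Wnt-intermediate and 10.8% of Wnt-low cells. Without these cells the log2 ratio of Sparc, a matrix protein, was 1.0 in place of -1.76 and that of Igfbp7 0.20 in place of -1.54, while that of Clu was -1.40. Hemoglobin genes summed to 1061, 1623 and 2852 CPM in the 3 groups, and Hbb-bt, among the lowest ratios above, had 64.6% of its Wnt-high UMIs in 1 cell.

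Cycling cells made up 10.1% (7.46 to 13.3) of Wnt-high, 7.66% (6.72 to 8.68) of Wnt-intermediate and 5.26% (3.65 to 7.31) of Wnt-low cells, and the intervals of the first 2 groups overlap. All 15 mitosis genes had ratios above 0, with a median of 0.76, among them Mki67 at 24.3 against 13.8 CPM (0.82, 0.63 to 1.0). Of all genes with 3 UMIs in both groups 56.3% were above 0. At 10 CPM 1 of 8 mitosis genes was 2-fold higher and 0 lower, against 1.60% and 1.16% of all genes. DNA replication genes had a median of 0.00. The cyclin Ccnd2 was at 27.0 against 7.92 CPM (1.77), with 64.0% of its UMIs in clusters 7 and 8 and a ratio of 0.47 without them, and the inhibitor Cdkn2a at 30.5 against 15.3 CPM (1.0, and 0.43 without). Squamous and hair follicle genes had a median of 0.11, with 2 genes higher and 2 lower of 9 at 10 CPM, against 1.60% and 1.16% of all genes. The lower ones were Ivl and Sprr1a, both of the cornified envelope. Of the higher ones Lor (1.06), also of the cornified envelope, had 51.6% of its UMIs in clusters 7 and 8, without which it was at 0.20, and the homeobox gene Dlx3 (1.01) was at 1.06 without them.

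Genes of androgen, ribosome, nuclear export and HGF/MET biology, which the study follows, were mostly within 2-fold between the groups. That also holds for most genes, since 1.60% of all 6995 genes at 10 CPM were 2-fold higher and 1.16% lower. Of 13 androgen genes 10 were under 10 CPM in Wnt-high cells. The 13 summed to 371 CPM in Wnt-high, 359 in Wnt-intermediate and 86488 in gated DoubleTg cells. Fkbp5, an androgen-responsive gene, was at 3.21 against 2.58 CPM (0.31, -0.21 to 0.81). Pbsn, the gene of the promoter that drives Cre, was at 4.77 against 7.70 CPM with 89.7% of its Wnt-high UMIs in 1 cell. Over 82 ribosomal protein genes the median ratio was 0.04 and none was 2-fold apart, with Rpl12 at 4711 against 4339 CPM (0.12, 0.11 to 0.13) and Rps16 at 5042 against 4977 CPM (0.02). Nucleolar (0.02), translation (0.04) and nuclear transport genes (0.07) had medians as close to 0. Xpo1, the main nuclear export receptor, was at 18.3 CPM (15.9 to 20.8) against 13.8 (0.40, 0.19 to 0.61). The hMETtg transcript was at 29.9 against 24.3 CPM (0.30, 0.14 to 0.46) and at -0.07 without clusters 7 and 8, and was seen in 18.2% against 16.9% of cells at 10000 UMIs. Spint1, an inhibitor of HGF-activating proteases, was at 252 against 302 CPM (-0.26). Immediate early genes, which dissociation can induce, had a median of 0.00, and MAPK feedback genes 0.09.

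Some alpha-defensin genes outside the sum of the gate were higher although that sum had been limited. Of 12 listed genes 6 had a ratio, with a median of 1.35 and a lowest of 0.20 for Gm15315, and 2 of 3 at 10 CPM were 2-fold higher, against 1.60% of all genes. Defa20, of that list, was at 808 against 216 CPM (1.90, 1.87 to 1.94). Not on the list but among the 15 highest ratios, Gm15308 was at 1232 against 356 CPM (1.79) and Gm21002 at 433 against 117 CPM (1.89). Within clusters of the gate these ratios were 0.16, 0.39 and 0.31. They belong to a family of near-identical copies among which the counting may split reads, and UMIs of Defa20 were seen in 58.1% of Wnt-high, 42.7% of Wnt-intermediate and 24.2% of immune cells. The median defensin sum of the rule was 4.63 per 10000 in Wnt-high and 1.68 in Wnt-intermediate cells. A further 194 TripleTg cells met the score of 4 but not the defensin limit. They had 263 CPM of Axin2, 441 of Wif1, 146 of Wnt6, 406 of Ptn and 1838 of Clu, beside 210.1, 418, 101, 325 and 2018 CPM in the 446 cells.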

How the data were processed

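The deposited matrices hold raw UMI counts per gene and cell, which the authors made, per the labels, with Cell Ranger 6.0.2 from reads aligned to mm10 with the transgenes added. For DoubleTg, however, the file itself gives version 6.1.1 in its header, and for TripleTg it gives none, so levels set across the libraries may come from 2 versions. Cells with 200 to 7000 genes and under 15% mitochondrial UMIs were used, a limit that all 9492 TripleTg cells already met. UMIs were summed over the cells of a group and divided by the group's total (CPM), and sums under 3 were set to 3 in log2 ratios. The members, gene lists and comparisons were chosen with earlier results of these data known. Genes named are members of the lists, genes the study names, the 15 highest and 15 lowest ratios at 10000 UMIs per cell and leading genes of clusters. A few genes of this rule are not reported here. Clustering used scanpy 1.11.5 (2000 variable genes, 20 components, 15 neighbors, Leiden resolution 0.5). Scrublet marked 0 of 9492 cells, too few to rely on its calls, so no doublets were removed and its scores are given as ranks only. The libraries shared 30 barcodes, 1 of them of a Wnt-high cell. Gene positions are those of GENCODE release 21 on GRCm38. TMM factors in 1 alternative came from edgeR 4.0.16. Thinning, splitting and ratios were tested on simulated data.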

Additional observations from a re-analysis of the deposited data

How the results depend on the processing

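The counts of 27 higher and 26 lower genes became 210 and 146 with a score of at least 8 in place of 4, 47 and 139 against cells under 0.5, and 112 and 81 at 10 CPM in place of 50, where more genes are compared. The lower count was 12 with groups chosen on one random part of the UMIs and measured on the other. Alternatives chosen after seeing the data gave 3 higher and 10 lower genes within clusters of all gated cells and 18 higher and 17 lower genes without clusters 7 and 8, with the filter reapplied. Leaving out cells marked by Scrublet changed nothing, since it marked none. In all other alternatives both counts moved by 1.5 times or less. The median of the Wnt inhibitors, 0.73, was 1.57 at a score of at least 8 and 0.46 to 0.84 elsewhere. The median over all genes stayed between -0.06 and 0.01.

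Of 57 named genes at least 2-fold apart, some changed sign. At a score of at least 8 the ratio was 0.050 for Sparc, 0.34 for Igfbp7, 0.035 for Pate4, 0.56 for Sfrp1 and -0.91 for Cenpf, which was at -0.060 with cycling cells left out. Without cells with non-epithelial markers it was 1.0 for Sparc, 0.20 for Igfbp7, 0.37 for Col1a2, 0.20 for Col3a1 and 0.42 for Cdh5. Within clusters it was -0.21 for Lgals7, 0.35 for Sparc, 0.031 for Igfbp7, 0.25 for Pate4, 0.45 for Ifit3, 0.26 for Col1a2, 0.45 for Col3a1, 0.63 for Rgs5 and 0.72 for Cdh5. In cells of 20000 to 40000 UMIs it was 0.087 for S100a9. Among genes listed after their values were seen, Mt4 (-3.14), Gpx2 (-0.27) and Cxcl14 (-0.14) fell below 0 without clusters 7 and 8. There cells were left out on the Wnt-high side only. The cause was not tested. No paired analysis was possible because each genotype has 1 library and both groups come from it. Genes of a few CPM rest on few UMIs, and differences between Wnt-high and Wnt-intermediate cells of other mice were not measured.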

Other observations

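Aspscr1, which encodes a tether of glucose transporter vesicles and was singled out after its values were seen, was at 414 CPM (403 to 426) in Wnt-high, 155 in Wnt-intermediate, 85.4 in Wnt-low and 29.9 in gated DoubleTg cells, a log2 ratio of 1.42 (1.37 to 1.47) and 0.69 within clusters of the gate. Its gene (chr11:120672973-120709447, plus strand) lies near the score gene Notum (chr11:120653788-120661175, minus strand). Whether the pair share reads was not tested. The 12 DoubleTg cells with a score of at least 4 had a median of 12956 UMIs, against 36179 in the DoubleTg cells under 0.5.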
